A study of Homo sapiens with 18 samples.

Results

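The ER unfolded protein response genes described here are 10 genes, HSPA5, XBP1, ERN1, ATF6, HERPUD1, DNAJB9, SDF2L1, HYOU1, PDIA4 and CRELD2, chosen by their gene symbols out of the 27968 genes in the files. All 10 were present in every file and passed the filter on low counts in every comparison. Gene expression was measured by RNA sequencing of total RNA depleted of ribosomal RNA. The design text states the purpose as profiling the genes that the helicase BLM regulates in cancer cells. The 18 libraries form 6 groups of 3. In A549, a human lung cancer cell line, the groups are BLM siRNA1, BLM siRNA2, BLM siRNA3 and a control siRNA, and in MDA-MB-231, a human breast cancer cell line, they are BLM siRNA1 and a control siRNA. All groups were grown in DMEM with serum and transfected. An siRNA against BLM lowers its mRNA without removing the gene, and each siRNA can also act on other transcripts. That siRNA1 is the same molecule in both lines was taken from its shared name. The protocols name both flat and 3D culture and do not assign libraries to either. Whether replicates are separate cultures is not stated, and the p-values rest on a spread that may be technical only.

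The unfolded protein response adjusts the folding capacity of the endoplasmic reticulum (ER). HSPA5 (BiP), the main ER chaperone, binds the luminal parts of the sensors ERN1 (IRE1 alpha), ATF6 and PERK and is titrated away from them when unfolded proteins build up. ERN1 then splices the XBP1 mRNA into the form that encodes an active transcription factor, ATF6 is cleaved to release its transcription factor part, and PERK phosphorylates a translation factor, which favours translation of ATF4. XBP1 and cleaved ATF6 raise chaperones, folding enzymes and degradation factors through short promoter elements. The values here are gene totals, so they do not separate spliced from unspliced XBP1 mRNA, and they do not measure cleavage of ATF6.

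The promoter elements that these factors bind were located first, because they show which members carry the textbook sites. The sequences are from RefSeq on build GRCh38.p14, in windows of 250 bases before to 50 bases after the annotated start of each gene, and the 10 members had 12 windows, XBP1 and PDIA4 having 2 each. The search covered both strands for the ER stress response element ERSE (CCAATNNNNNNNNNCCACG), for ERSE-II (ATTGGNCCACG), for the UPRE core (TGACGTGG) and for the composite element of ATF4 (TGATGNAAN). ERSE was found in HSPA5, XBP1 (in 1 of its 2 windows) and CRELD2, 3 of the 12 windows, and in 0.077% of all 35116 windows of the table. ERSE-II was found in HERPUD1, HYOU1 and SDF2L1, again 3 of 12 windows, and in 0.054% of all windows. The UPRE core was found in HYOU1 only (0.729% of all windows), where it overlaps the distal ERSE-II, and the ATF4 composite in HERPUD1 only (3.611% of all windows). The sites of ERSE and ERSE-II follow, 5′ to 3′ on the strand of the gene, with the fixed letters of the motif in capitals. In CRELD2, HYOU1 and SDF2L1 the motif lies on the opposite strand, so its reverse complement is printed.
HSPA5 ERSE, chr9:125241391-125241409 (minus), first base 66 bases before the start: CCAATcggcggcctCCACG
XBP1 ERSE, chr22:28800603-28800621 (minus), first base 52 bases before the start: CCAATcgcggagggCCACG
CRELD2 ERSE, chr22:49918554-49918572 (plus), first base 80 bases before the start: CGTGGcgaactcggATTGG
HERPUD1 ERSE-II, chr16:56932025-56932035 (plus), first base 117 bases before the start: ATTGGgCCACG
HYOU1 proximal ERSE-II, chr11:119057274-119057284 (minus), first base 79 bases before the start: CGTGGtCCAAT
HYOU1 distal ERSE-II, chr11:119057380-119057390 (minus), first base 185 bases before the start: CGTGGtCCAAT
SDF2L1 ERSE-II, chr22:21642114-21642124 (plus), first base 188 bases before the start: CGTGGaCCAAT

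The upstream windows of HSPA5 and HYOU1 are printed whole, because HSPA5 is the chaperone most often used to read out the response and HYOU1 was the member with the most matches. Capitals mark the ERSE in HSPA5. In HYOU1 they mark the UPRE core with the overlapping distal ERSE-II and then the proximal ERSE-II.
HSPA5, chr9:125241344-125241593 (minus): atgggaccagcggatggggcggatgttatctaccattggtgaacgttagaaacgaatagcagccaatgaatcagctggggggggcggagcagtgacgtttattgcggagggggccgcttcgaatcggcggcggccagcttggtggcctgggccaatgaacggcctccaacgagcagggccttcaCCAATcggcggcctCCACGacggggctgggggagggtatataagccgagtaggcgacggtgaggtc
HYOU1, chr11:119057206-119057455 (minus): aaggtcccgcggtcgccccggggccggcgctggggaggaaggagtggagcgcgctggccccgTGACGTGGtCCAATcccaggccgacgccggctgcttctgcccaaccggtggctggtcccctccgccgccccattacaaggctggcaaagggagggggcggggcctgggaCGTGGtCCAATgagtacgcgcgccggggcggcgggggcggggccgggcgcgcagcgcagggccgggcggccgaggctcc
The windows of ERN1, ATF6, DNAJB9 and PDIA4 held none of the 4 motifs, which says only that these letters are not in these windows.

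**Figure D1:**
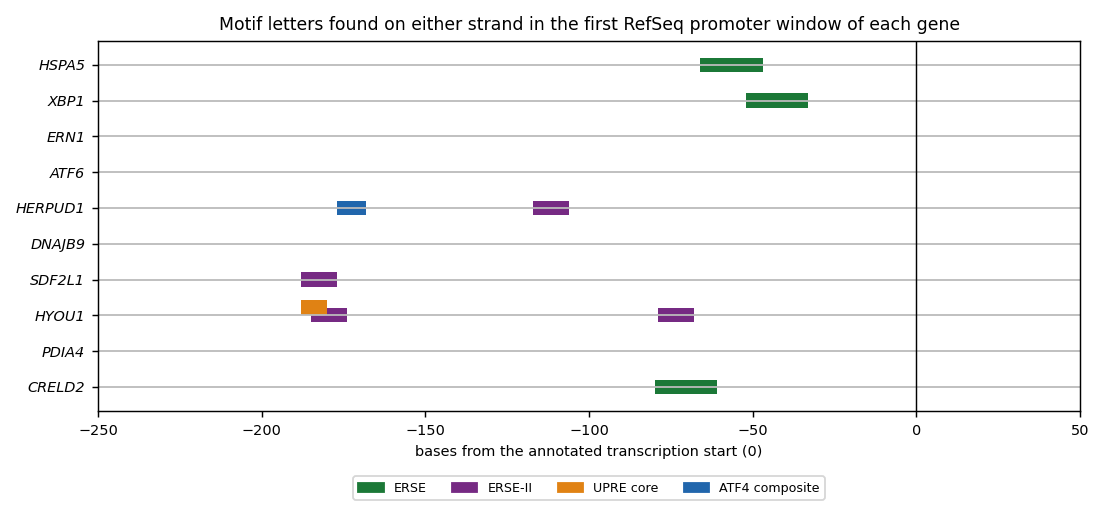
Positions of the motif letters in the promoter window of each of the 10 genes, in bases from the annotated transcription start (horizontal axis, 0 is the start). Bars in 6 rows mark ERSE or ERSE-II, HERPUD1 also has the ATF4 composite and HYOU1 the UPRE core, and the rows of ERN1, ATF6, DNAJB9 and PDIA4 are empty.

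Library totals ran from 30143047 to 40328208 expected counts. Values below are CPM (expected counts scaled to library size) scaled by TMM, and log2 fold changes carry standard errors from edgeR's quasi-likelihood test, adjusted by Benjamini-Hochberg over all genes tested. BLM mRNA was lower in every library given a BLM siRNA (largest adjusted p 9.43e-09). It stood at 1.18 ± 0.0117 CPM with siRNA1, 10.6 ± 0.266 with siRNA2 and 6.47 ± 0.318 with siRNA3, against 77.9 ± 5.25 in control A549 (SD, n = 3), and at 5.16 ± 0.0815 with siRNA1 against 35.0 ± 1.29 in control MDA-MB-231. Replicate 3 of siRNA3 stood apart from the other libraries. The SD of its genes' log2 deviations from the group mean was 0.249, against 0.0816 to 0.165 in the other 17 libraries, so results with siRNA3 are given with and without it. Its deviations had a Spearman correlation of -0.719 with gene length, against 0.620 and 0.544 in replicates 1 and 2, which share its group mean. In the other groups this correlation ran from -0.4796 to 0.2995. The part of gene length in the members' results was not tested. In A549 libraries the epithelial keratins KRT8 (2121 to 7116 TPM) and KRT18 (2820 to 7298 TPM) were abundant, while KRT19 (58.3 to 461 TPM), EPCAM (1.94 to 77.7 TPM) and CDH1 (1.02 to 73.8 TPM) varied widely. Their part in the results was not tested. The lung alveolar markers SFTPC, SFTPB and NKX2-1 were at or near 0 there and NAPSA at most at 1.85 TPM. MDA-MB-231 libraries had VIM at 1815 to 2811 TPM, against 784.9 to 1784 TPM in A549. In MDA-MB-231 the luminal breast markers ESR1 and PGR were at most at 0.28 TPM. GATA3 and FOXA1, also luminal markers, reached 2.03 and 3.41 TPM there, and 12.85 and 42.52 TPM in A549. KRT8, KRT18 and KRT19 in MDA-MB-231 reached 659.9, 652 and 643.5 TPM, and NKX2-1 had 1.98 to 7.35 TPM. The leukocyte markers PTPRC and CD3E stayed at or under 0.13 TPM in all libraries, while CD14 reached 8.53 TPM in A549 and 13.2 TPM in MDA-MB-231. In these bulk samples a lower value per cell and fewer cells of a kind cannot be told apart.

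In A549 the calls differed between the 3 siRNAs, in direction or in which members passed. With siRNA2, 9 of 10 were higher than control and none was lower, with SDF2L1 the exception. With siRNA3, 6 were lower (XBP1, ERN1, DNAJB9, SDF2L1, HYOU1 and PDIA4) and HERPUD1 was higher. With siRNA1, 4 were lower (HSPA5, SDF2L1, HYOU1 and PDIA4) and ERN1 and HERPUD1 were higher. HERPUD1, a scaffold of ER-associated degradation, was the only member higher with all 3 siRNAs, and 0 members were lower with all 3. ERN1, HYOU1 and PDIA4 passed the test with each siRNA but with mixed sign. The 3 comparisons share the A549 control libraries. How many of all genes were called with all 3 siRNAs, in the same or in mixed directions, was not counted.

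The counts for each siRNA stand against a background in which most genes passed the same test. Of 15898 genes, 71.7% were called with siRNA1, 39% higher and 32.8% lower, so 6 of 10 members called is close to the background. Without overlap between the groups, 3 members were higher and 5 lower, against 41.5% and 35.3% of all genes. With siRNA2, 60.9% of all genes were called, 32.5% higher and 28.4% lower, against 9 of 10 members higher. The same 9 were higher without overlap and 0 lower, against 37.4% and 33.6% of all genes. With siRNA3, 61.3% were called, 30.9% higher and 30.4% lower, against 6 of 10 members lower and 1 higher. Without overlap, 1 was higher and 7 lower, against 31.8% and 32.4% of all genes. Without replicate 3 of siRNA3 the members' counts were 7 lower and 1 higher, HSPA5 being added at -0.23 (adjusted p 0.00811). The median log2 fold change of the members was -0.15 with siRNA1, 0.74 with siRNA2 and -0.53 with siRNA3, against 0.09, 0.04 and 0.00 over all genes tested. On deposited TPM, the siRNA1 median of all genes moved to 0.23 on the log2(TPM + 1) scale and that of the members to 0.09. There ATF6 (0.35) and CRELD2 (0.41) were also called higher, SDF2L1 (-0.19) and HYOU1 (-0.03) were no longer called, and XBP1 (0.06) and DNAJB9 (0.12), which did not pass on either scale, changed sign. The split of called genes moved with it, to 7689 higher and 3558 lower on TPM, against 6196 higher and 5208 lower on counts.

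In MDA-MB-231, siRNA1 changed all 10 members. ERN1, HERPUD1 and DNAJB9 were higher and the other 7, HSPA5, HYOU1 and PDIA4 among them, were lower. The background was 55.3% of 15280 genes called, 27.5% higher and 27.8% lower. No member's groups overlapped, with 3 higher and 7 lower, against 31.6% and 31% of all genes. The members' median log2 fold change was -0.21, against 0.01 over all genes. On TPM, XBP1 (-0.14) and ATF6 (-0.11) were no longer called on the log2(TPM + 1) scale, and the split of all called genes was 4971 higher and 3317 lower, against 4208 higher and 4249 lower on counts.

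**Figure D2:**
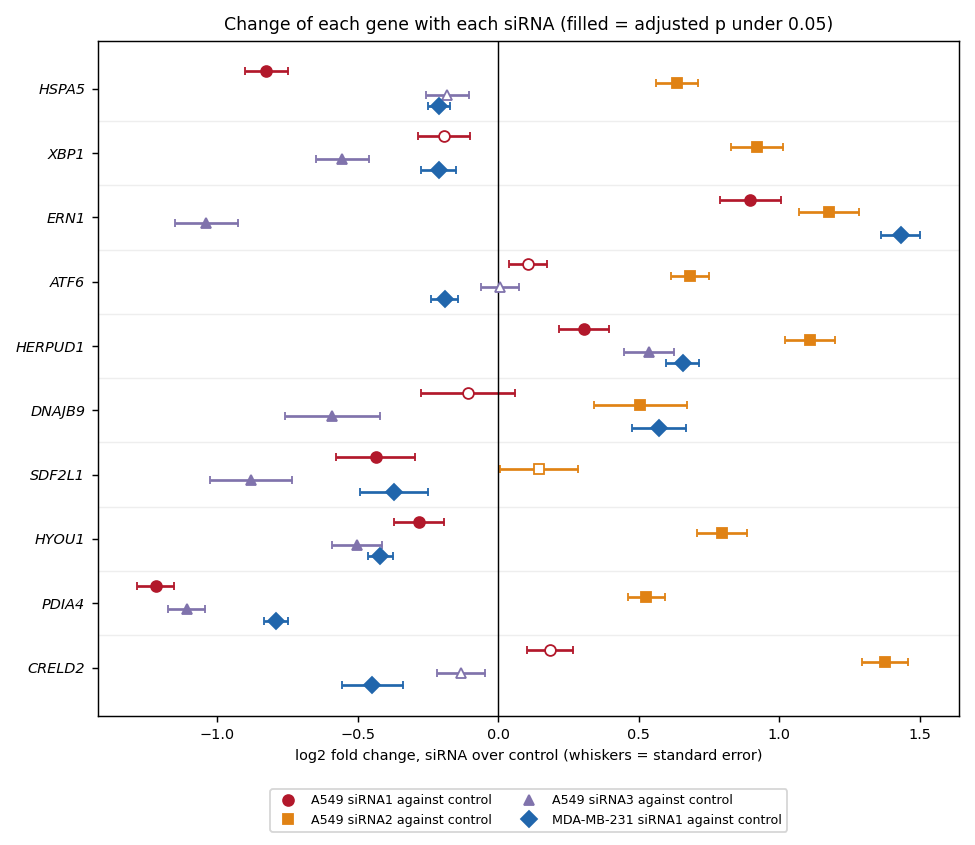
Log2 fold change (horizontal axis, siRNA over control, whiskers = standard error) of each of the 10 genes (rows) in the 4 comparisons, with filled points for an adjusted p under 0.05. With siRNA2 9 of 10 points are filled and right of 0, and only HERPUD1 has all 4 points filled and right of 0. On TPM the siRNA1 points of XBP1 and DNAJB9 in A549 change sign and that of ATF6 with siRNA3 lies at -0.001, and none of these 3 is filled here.

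Of the sensors, ERN1, the kinase and endoribonuclease that splices XBP1 mRNA, had the widest spread between groups. In A549 it was at 47.4, 47.0 and 49.4 CPM with siRNA1, 60.2, 56.1 and 58.3 CPM with siRNA2 and 13.9, 13.5 and 10.1 CPM with siRNA3, against 26.1, 23.0 and 28.1 CPM in control. All siRNA1 and siRNA2 libraries lay above control and all siRNA3 libraries below it. The log2 fold change was 0.90 ± 0.11 with siRNA1, 1.18 ± 0.11 with siRNA2 and -1.04 ± 0.11 with siRNA3 (largest adjusted p 5.06e-06), and -0.91 for siRNA3 without its replicate 3. In MDA-MB-231, ERN1 reached 154, 157 and 162 CPM with siRNA1, against 59.0, 52.5 and 63.8 CPM in control. This was the largest change of any member in the 4 comparisons with control, at 1.43 ± 0.07 or 2.70-fold (adjusted p 2.32e-07).

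ATF6, the sensor that becomes a transcription factor after cleavage, passed the test on A549 counts only with siRNA2. It had 78.1, 81.7 and 75.6 CPM with siRNA1, 115, 117 and 118 CPM with siRNA2 and 74.3, 75.5 and 69.9 CPM with siRNA3, against 76.4, 71.3 and 70.8 CPM in control. The siRNA2 libraries were apart from all others of the line, and those of siRNA1 and siRNA3 overlapped with control. Its log2 fold change was 0.68 ± 0.07 with siRNA2 (adjusted p 1.58e-06), 0.11 ± 0.07 with siRNA1 (adjusted p 0.172) and 0.01 ± 0.07 with siRNA3 (adjusted p 0.933, and 0.04 without replicate 3). In MDA-MB-231 it was lower, at 133, 129 and 133 CPM with siRNA1 against 144, 151 and 156 CPM in control, a change of -0.19 ± 0.05 (adjusted p 0.00812). Some of its expected counts were not whole numbers, in 6 libraries, so a small share of its reads was divided with other transcripts.

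XBP1, the transcription factor whose mRNA ERN1 splices, had 41.4, 39.3 and 43.0 CPM with siRNA1, 91.9, 86.5 and 89.3 CPM with siRNA2 and 27.8, 31.6 and 37.0 CPM with siRNA3, against 47.9, 45.1 and 48.4 CPM in control A549. Every siRNA2 library was above control and every siRNA1 and siRNA3 library below it. The log2 fold change was 0.92 ± 0.09 with siRNA2 (adjusted p 1.71e-06) and -0.56 ± 0.09 with siRNA3 (adjusted p 0.00017), and -0.67 for siRNA3 without its replicate 3. With siRNA1 it was -0.19 ± 0.09 (adjusted p 0.0772). It passed the threshold when any 1 siRNA3 library was left out (-0.19 to -0.26, largest adjusted p 0.0419), with DESeq2 size factors (-0.24, adjusted p 0.0379), with the Wald test (adjusted p 0.0302), with no filter (-0.27, adjusted p 0.0269) and in the fit of 2 groups (-0.24, adjusted p 0.0108), and on TPM it changed sign. MDA-MB-231 cells had 81.2, 75.9 and 72.9 CPM with siRNA1, against 85.6, 86.2 and 94.8 CPM in control. That difference of -0.21 ± 0.06 (adjusted p 0.0163) was lost without siRNA1 replicate 2 (-0.21, adjusted p 0.0562) or replicate 3 (-0.18, adjusted p 0.0763).

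**Figure D3:**
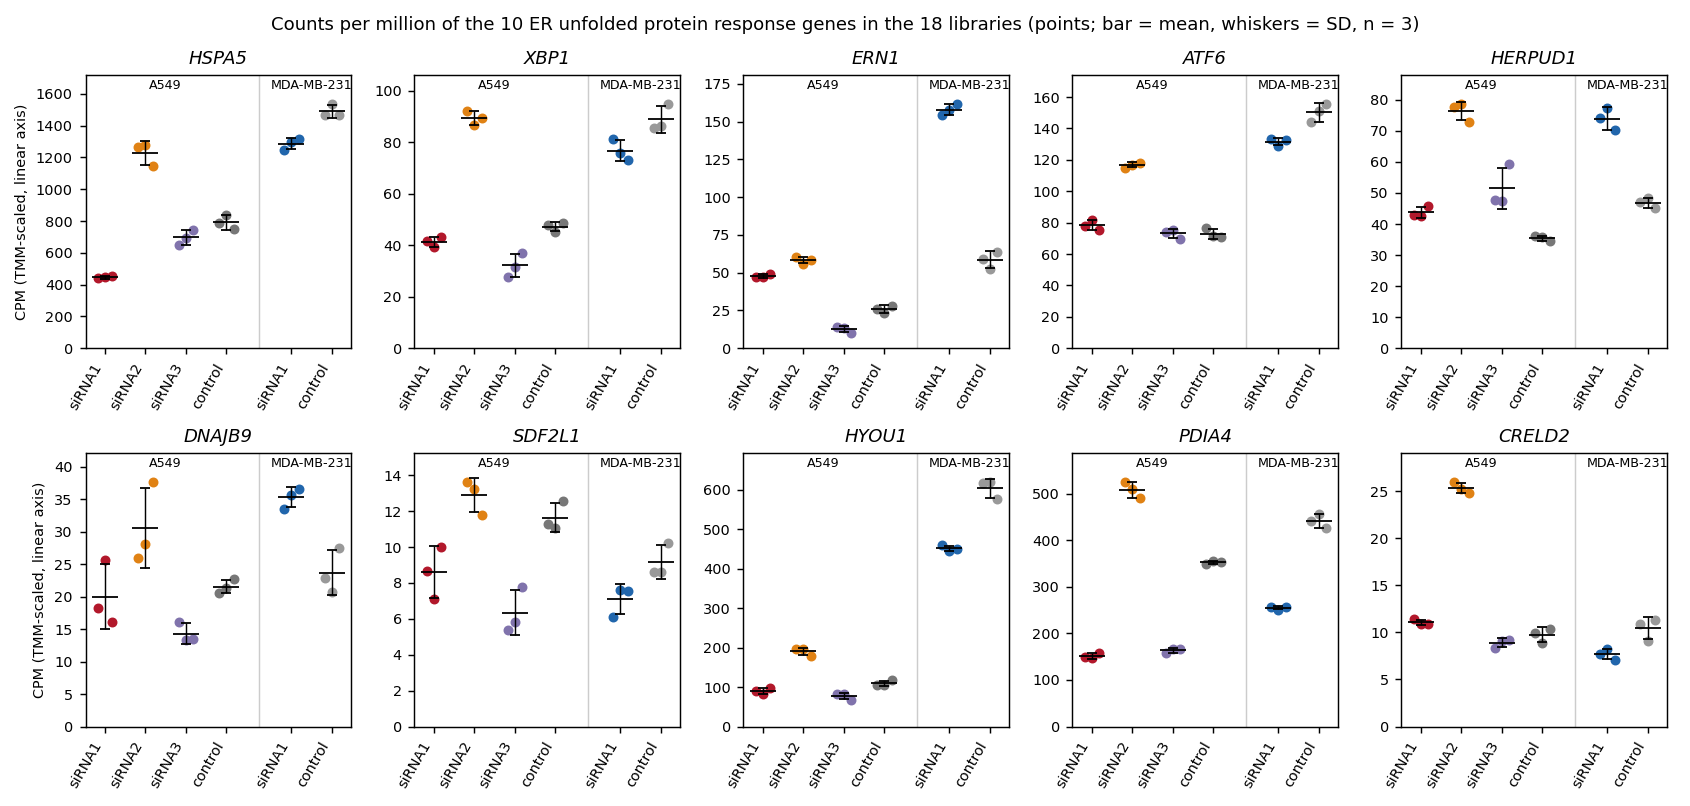
CPM (vertical axes, linear, from 0) of each of the 10 genes in all 18 libraries, with points for libraries, bars for the mean and whiskers for the SD of 3. In A549 the siRNA2 points are the highest of the line for 9 genes, while in SDF2L1 they overlap with control.

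HSPA5, the central chaperone, was lowest with siRNA1 and highest with siRNA2 among the A549 groups. It stood at 439, 445 and 455 CPM with siRNA1, 1265, 1279 and 1143 CPM with siRNA2 and 651, 696 and 746 CPM with siRNA3, against 789.8, 837 and 747 CPM in control. None of the siRNA groups overlapped with control, siRNA2 lying above it and the others below, siRNA3 by a margin smaller than its own spread. Its log2 fold change was -0.83 ± 0.08 with siRNA1 (adjusted p 4e-07) and 0.64 ± 0.08 with siRNA2 (adjusted p 8.53e-06). With siRNA3 it was -0.18 ± 0.08 (adjusted p 0.0524), and past the threshold without siRNA3 replicate 3 (-0.23, adjusted p 0.00811), without control replicate 3 (-0.22, adjusted p 0.0392) or without siRNA2 replicate 3 (-0.18, adjusted p 0.0493). It also passed with DESeq2 size factors (-0.20, adjusted p 0.041), with the Wald test (adjusted p 0.0251) and on log2(TPM + 1) (-0.19, adjusted p 0.00783). In MDA-MB-231 the levels were 1248, 1297 and 1315 CPM with siRNA1, against 1464, 1537 and 1470 CPM in control, a change of -0.21 ± 0.04 (adjusted p 0.0015).

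HYOU1, a large ER chaperone that exchanges the nucleotide of HSPA5, had 90.3, 83.2 and 96.4 CPM with siRNA1, 195, 196 and 179.7 CPM with siRNA2 and 82.1, 81.2 and 68.4 CPM with siRNA3, against 106, 106 and 117 CPM in control A549. None of the siRNA groups overlapped with control. The log2 fold change was -0.28 ± 0.09 with siRNA1 (adjusted p 0.0112), 0.80 ± 0.09 with siRNA2 (adjusted p 4.52e-06) and -0.50 ± 0.09 with siRNA3 (adjusted p 0.000256, and -0.42 without replicate 3). In MDA-MB-231 it was at 459, 446 and 449 CPM with siRNA1, against 616, 619 and 576 CPM in control, a change of -0.42 ± 0.04 (adjusted p 3.32e-05).

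PDIA4, an ER disulphide isomerase, showed the largest fall of any member. Its A549 levels were 149.5, 147 and 158 CPM with siRNA1, 525, 509.9 and 490.2 CPM with siRNA2 and 157, 166 and 168 CPM with siRNA3, against 349, 356 and 353 CPM in control. No siRNA group overlapped with control, siRNA2 lying above it and the others below. The log2 fold change was -1.22 ± 0.07 with siRNA1, or 0.43 times control, 0.53 ± 0.07 with siRNA2 and -1.11 ± 0.07 with siRNA3, or 0.46 times control (largest adjusted p 1.07e-05), and -1.13 for siRNA3 without its replicate 3. With siRNA1 MDA-MB-231 had 258, 251 and 256 CPM, against 441, 456 and 427 CPM in control, a change of -0.79 ± 0.04 (adjusted p 5.07e-07).

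SDF2L1, an ER protein of chaperone complexes with HSPA5, was lower with siRNA1 and siRNA3 but not with siRNA2. In A549 it had 8.67, 7.12 and 10.0 CPM with siRNA1, 13.6, 13.2 and 11.8 CPM with siRNA2 and 5.40, 5.84 and 7.76 CPM with siRNA3, against 11.3, 11.1 and 12.6 CPM in control. The siRNA1 and siRNA3 libraries were below control and those of siRNA2 overlapped with it. Its log2 fold change was -0.44 ± 0.14 with siRNA1 (adjusted p 0.0133), 0.15 ± 0.14 with siRNA2 (adjusted p 0.384) and -0.88 ± 0.15 with siRNA3 (adjusted p 0.000146, and -1.05 without replicate 3). The siRNA1 call was lost without siRNA1 replicate 2 (-0.32, adjusted p 0.0596) or control replicate 3 (-0.38, adjusted p 0.0526). MDA-MB-231 had 6.11, 7.60 and 7.57 CPM with siRNA1, against 8.63, 8.60 and 10.2 CPM in control. The change there was -0.37 ± 0.12 (adjusted p 0.0241), not called without siRNA1 replicate 1 (-0.27, adjusted p 0.0897).

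DNAJB9, a J-domain partner of HSPA5 that also holds ERN1 inactive, was higher with siRNA1 in MDA-MB-231, unlike the other chaperone members. Its levels there were 33.5, 35.7 and 36.6 CPM with siRNA1 against 22.8, 20.7 and 27.5 CPM in control, a change of 0.57 ± 0.10 (adjusted p 0.000698). In A549 it had 18.2, 25.6 and 16.1 CPM with siRNA1, 25.9, 28.2 and 37.6 CPM with siRNA2 and 16.1, 13.3 and 13.4 CPM with siRNA3, against 20.6, 21.4 and 22.6 CPM in control. Its replicates spread widely, those of siRNA1 on both sides of control. The log2 fold change was -0.11 ± 0.17 with siRNA1 (adjusted p 0.577), 0.51 ± 0.17 with siRNA2 (adjusted p 0.0173) and -0.59 ± 0.17 with siRNA3 (adjusted p 0.00827, and -0.55 without replicate 3). The siRNA2 call was lost without siRNA2 replicate 3 (0.33, adjusted p 0.1) or without control replicate 1 (0.47, adjusted p 0.0575).

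HERPUD1, which anchors the ubiquitin ligase complex of ER-associated degradation, was higher in each of the 4 comparisons with control. Its A549 levels were 42.8, 42.7 and 45.9 CPM with siRNA1, 77.6, 78.7 and 73.0 CPM with siRNA2 and 47.6, 47.5 and 59.3 CPM with siRNA3, against 36.1, 35.7 and 34.5 CPM in control. Every siRNA library was above every control library. The log2 fold change was 0.31 ± 0.09 with siRNA1 (adjusted p 0.00693), 1.11 ± 0.09 with siRNA2 (adjusted p 2.22e-07) and 0.54 ± 0.09 with siRNA3 (adjusted p 0.00014). Without siRNA3 replicate 3, the library with 59.3 CPM, the siRNA3 value was 0.42 (adjusted p 9.54e-05). In MDA-MB-231 it had 74.0, 77.5 and 70.2 CPM with siRNA1, against 47.0, 48.5 and 45.2 CPM in control, a change of 0.66 ± 0.06 (adjusted p 1.14e-05).

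CRELD2, a secreted and ER-resident protein known as an ER stress marker, passed the test on A549 counts only with siRNA2. It had 11.4, 10.9 and 10.9 CPM with siRNA1, 26.0, 25.2 and 24.9 CPM with siRNA2 and 8.36, 9.12 and 9.22 CPM with siRNA3, against 9.96, 8.90 and 10.4 CPM in control. The siRNA2 libraries were far above all other A549 libraries, the siRNA1 libraries were all above control, and those of siRNA3 overlapped with control. Its log2 fold change was 1.38 ± 0.08 with siRNA2, or 2.60-fold (adjusted p 1.39e-08), the largest of siRNA2, 0.18 ± 0.08 with siRNA1 (adjusted p 0.0597) and -0.13 ± 0.08 with siRNA3 (adjusted p 0.185, and -0.16 without replicate 3). The siRNA1 value passed the threshold without siRNA3 replicate 3 (0.18, adjusted p 0.0471) or control replicate 3 (0.23, adjusted p 0.0406). In MDA-MB-231 it was lower, at 7.72, 8.20 and 7.10 CPM with siRNA1 against 10.9, 9.12 and 11.3 CPM in control, a change of -0.45 ± 0.11 (adjusted p 0.00578).

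Set against each other, the A549 siRNAs differed at nearly all members. With siRNA1 all 10 members were lower than with siRNA2, where 27.4% of all genes were lower, 28.6% higher and 56% called. The largest differences were in PDIA4 (-1.75 ± 0.07) and HSPA5 (-1.46 ± 0.08) and the smallest in ERN1 (-0.28 ± 0.11, adjusted p 0.0371). ERN1 lost that call when any 1 of the siRNA1 or siRNA2 libraries or control replicate 1 was left out (adjusted p 0.0508 to 0.105). On the log2(TPM + 1) scale it was -0.11 (adjusted p 0.507) and DNAJB9, -0.61 ± 0.17 on counts, was -0.44 (adjusted p 0.0739). With siRNA2 all 10 were higher than with siRNA3, where 30.1% of all genes were higher, 28.9% lower and 59% called, and this held without replicate 3 of siRNA3. ERN1 differed most there (2.22 ± 0.11, or 4.65-fold, and 2.09 without replicate 3), followed by PDIA4 (1.64 ± 0.07) and CRELD2 (1.51 ± 0.08), and HERPUD1 least (0.57 ± 0.09).

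Between siRNA1 and siRNA3, 6 members were higher with siRNA1 and 2 lower, where 34.4% of all genes were higher, 32.3% lower and 66.6% called. The median of the members was 0.27. ERN1 led (1.94 ± 0.11, or 3.83-fold), and HSPA5 was lower with siRNA1 (-0.64 ± 0.08). PDIA4 (-0.11 ± 0.07, adjusted p 0.148) and ATF6 (0.10 ± 0.07, adjusted p 0.212) did not pass the test. The smaller calls rested on single libraries. Without siRNA3 replicate 3, 4 were higher and 1 was lower, with HERPUD1 at -0.12, HYOU1 at 0.14 and DNAJB9 at 0.44 no longer called, and without siRNA3 replicate 2 only 2 were called higher. On the log2(TPM + 1) scale, where the median of all genes was 0.21 against 0.02 on counts, HERPUD1 (0.04) and PDIA4 (0.16, adjusted p 0.0343) changed sign and 1 member was lower. The split of called genes on that scale was 7313 higher and 3219 lower, against 5467 higher and 5129 lower on counts. For siRNA1 against siRNA2 it was 5885 higher and 3097 lower, against 4553 higher and 4352 lower, with a median of all genes of 0.13 against 0.01.

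The effect of siRNA1 was compared between the lines by an interaction test over 12 libraries. Both lines gave the same call for 6 members, higher for ERN1 and HERPUD1 and lower for HSPA5, SDF2L1, HYOU1 and PDIA4. No member was called in opposite directions on counts. Against control, 71.7% of all genes were called in A549 and 55.3% in MDA-MB-231. How many of all genes had the same or opposite calls in both lines was not counted. On the log2(TPM + 1) scale CRELD2 was called higher in A549 (0.41) and lower in MDA-MB-231 (-0.36). The size of the effect still differed for 7 of 10, of 16736 genes of which 57.8% differed, 30.8% higher and 27% lower. The fall of HSPA5 was larger in A549, with a difference of -0.57 ± 0.07 (A549 minus MDA-MB-231, adjusted p 6.02e-06), and so was that of PDIA4 (-0.38 ± 0.07, adjusted p 0.000243). The rise of ERN1 was smaller in A549 (-0.49 ± 0.11, adjusted p 0.0017, but -0.36 with adjusted p 0.0504 on log2(TPM + 0.1)), as was that of HERPUD1 (-0.31 ± 0.09, adjusted p 0.00739). DNAJB9 (-0.64 ± 0.19, adjusted p 0.0108), called higher in MDA-MB-231 alone, had the most negative difference, and CRELD2 (0.68 ± 0.14, adjusted p 0.000649) and ATF6 (0.34 ± 0.08, adjusted p 0.00225), called lower in MDA-MB-231 alone, had positive ones. The ATF6 difference lost its call without replicate 2 of MDA-MB-231 siRNA1 (0.21, adjusted p 0.0712) or of MDA-MB-231 control (0.22, adjusted p 0.0624). On the log2(TPM + 1) scale HERPUD1 (-0.17, adjusted p 0.0566) and DNAJB9 (-0.52, adjusted p 0.0582) were not called and HYOU1 was (0.31, adjusted p 0.00547). XBP1 (0.06 ± 0.10), SDF2L1 (-0.02 ± 0.18) and HYOU1 (0.18 ± 0.09) gave no call on the difference (adjusted p 0.594, 0.945 and 0.0951), and XBP1 and SDF2L1 changed sign when some single libraries were left out.

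Levels between genes are compared per length, in TPM. HSPA5 was the most abundant member in every group. It averaged 254 ± 8.54 TPM with siRNA1, 624 ± 23.1 with siRNA2 and 329 ± 14.7 with siRNA3 (336 without replicate 3), against 376 ± 12.1 TPM in control A549 (SD, n = 3), and 745 ± 18.2 TPM with siRNA1 against 819 ± 20.2 in control MDA-MB-231. PDIA4 was next in all A549 groups, at 117 TPM with siRNA1, 353 with siRNA2 and 105 with siRNA3, against 229 TPM in control. ERN1 was the lowest member in all A549 groups, at 13.4, 14.6 and 2.94 TPM with siRNA1, siRNA2 and siRNA3 (3.37 for siRNA3 without replicate 3) against 6.02 TPM in control. In MDA-MB-231 it was 6th of 10 with siRNA1 (45.0 ± 1.19 TPM), against 10th in control (15.8 ± 2.07 TPM). HYOU1 was 2nd with siRNA1 (228 TPM) and 3rd in control (288 TPM) of that line, while it was 4th in control A549 (45.4 TPM).

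The middle of the order moved between groups. XBP1 (51.9 ± 3.61 TPM) and HYOU1 (45.4 ± 3.50 TPM) overlapped in control A549, as did ATF6 (17.8 TPM) and DNAJB9 (16.4 TPM). HERPUD1 was 3rd with siRNA1 (54.0 TPM, overlapping XBP1 at 54.0 TPM) and with siRNA3 (52.3 TPM, apart from XBP1 at 34.7 TPM), against 5th in control (36.6 TPM). With siRNA2, HYOU1 (84.2 TPM) and HERPUD1 (84.1 TPM) overlapped. CRELD2 rose to 6th with siRNA2 (38.6 TPM), against 9th in control (14.01 TPM). In control MDA-MB-231 the lowest 3, DNAJB9, CRELD2 and ERN1 (21.0, 17.3 and 15.8 TPM), overlapped with their neighbours, and with siRNA1 no neighbours overlapped. Summed over the 10 members, A549 libraries had 605 to 635 TPM with siRNA1, 1370 to 1413 TPM with siRNA2 and 579 to 637 TPM with siRNA3 (579 in replicate 3), against 808 to 835 TPM in control. MDA-MB-231 libraries had 1502 to 1540 TPM with siRNA1, against 1700 to 1773 TPM in control. HSPA5 and PDIA4 make up most of these sums.

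**Figure D4:**
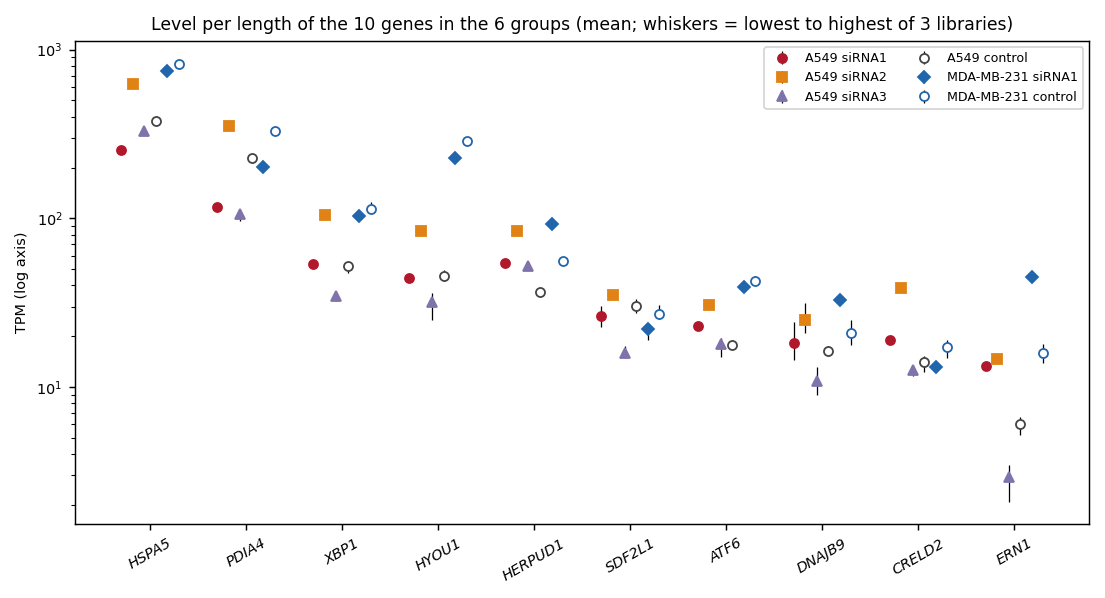
TPM (vertical axis, log scale) of the 10 genes in the 6 groups, ordered by their level in control A549, with points for group means and whiskers from the lowest to the highest of 3 libraries. HSPA5 is the highest member in every group, and ERN1 is the lowest in all A549 groups and 6th with siRNA1 in MDA-MB-231.

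Across the 12 A549 libraries, every pair of members had a positive Pearson correlation of log2 CPM. The 12 points share 4 groups, so these values describe the group pattern and carry no p. The highest was between ATF6 and CRELD2 (0.979, the same without siRNA3 replicate 3), both called against control in A549 counts with siRNA2 alone, and XBP1 and HYOU1 reached 0.956. HSPA5 and ERN1 had the lowest (0.147, and 0.178 without that library). Against control, siRNA1 lowered HSPA5 and raised ERN1. Among 12602 other genes with an average log2 CPM of at least 1, those most like HSPA5 were TMEM106C (0.989), HAS3 (0.984), SEL1L3 (0.979), ERP29 (0.977) and MANF (0.9745). ERP29 is an ER-resident protein of the disulphide isomerase family and MANF a secreted ER stress protein. Without siRNA3 replicate 3 the 5 values were 0.980 to 0.995.

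Other genes of the pathway were counted in 4 lists. ER chaperones and oxidoreductases were mostly lower with siRNA1, with siRNA3 and in MDA-MB-231, and mostly higher with siRNA2. Of 19, 13 were lower and 2 higher with siRNA1, 11 higher and 1 lower with siRNA2, and 11 lower and 3 higher with siRNA3 (12 and 3 without replicate 3), and in MDA-MB-231 13 were lower and 0 higher (3 higher without control replicate 3). Over all genes, 32.8% were lower and 39% higher with siRNA1, 32.5% higher and 28.4% lower with siRNA2, 30.4% lower and 30.9% higher with siRNA3, and 27.8% lower and 27.5% higher in MDA-MB-231. With siRNA2, 2 were lower without siRNA2 replicate 3 or siRNA3 replicate 3, and 3 in the fit of 2 groups. Their medians were -0.49, 0.45, -0.27 and -0.40 (all genes 0.09, 0.04, 0.00 and 0.01). With siRNA1 on TPM 8 were lower and 3 higher, with a median of -0.24. HSP90B1, the ER member of the HSP90 chaperones, was at 576, 586 and 570 CPM with siRNA1, 1785, 1819 and 1702 with siRNA2 and 902, 1002 and 1002 with siRNA3, against 1608, 1674 and 1394 CPM in control A549. It changed by -1.43 ± 0.08 with siRNA1, -0.69 ± 0.08 with siRNA3 and -0.67 ± 0.05 with siRNA1 in MDA-MB-231 (largest adjusted p 5.61e-06). TXNDC5, a thioredoxin-like folding enzyme, was lower with siRNA1 (-1.08 ± 0.08), siRNA2 (-0.54 ± 0.08, the only gene of the list lower there on all libraries, named after the values were seen) and siRNA3 (-0.83 ± 0.08) and in MDA-MB-231 (-1.12 ± 0.05). PDIA6, a disulphide isomerase, was lower with siRNA1 (-0.90 ± 0.07) and siRNA3 (-0.55 ± 0.07) and higher with siRNA2 (0.64 ± 0.07). In MDA-MB-231 it was lower (-0.43 ± 0.05, adjusted p 3.76e-05). The calcium-binding chaperone CALR was higher with siRNA2 (0.91 ± 0.07) and lower in MDA-MB-231 (-0.69 ± 0.06). With siRNA1 in A549 it was lower (-0.33 ± 0.07, adjusted p 0.000467). SIL1, another nucleotide exchange factor of HSPA5, was higher in A549 with siRNA1 (1.01 ± 0.08), siRNA2 (1.15 ± 0.08) and siRNA3 (0.75 ± 0.08). In MDA-MB-231 it was not called (-0.05 ± 0.07, adjusted p 0.598). Each of these calls printed without its own adjusted p had one of at most 3.3e-05.

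In the list of sensors and their processing, 7 genes were tested. With siRNA1 3 were higher and 4 lower, with siRNA2 3 higher and 2 lower, with siRNA3 2 higher and 3 lower (2 lower without replicate 3), and in MDA-MB-231 0 higher and 4 lower. Medians were -0.37, 0.14, -0.03 and -0.28, against 0.09, 0.04, 0.00 and 0.01 over all genes. Over all genes, 39% were higher and 32.8% lower with siRNA1, and 32.5% and 28.4% with siRNA2. With siRNA3 the shares were 30.9% and 30.4%, and in MDA-MB-231 27.5% and 27.8%. In total 71.7%, 60.9%, 61.3% and 55.3% were called. The numbers called with siRNA2 and siRNA3 lie near the background. In MDA-MB-231 the total lies near it, but the split was 0 higher and 4 lower (1 and 3 on TPM). With siRNA1 all 7 were called on counts. On log2(TPM + 1) 3 were higher and 2 lower, with a median of -0.12. CREB3L1, an ER membrane transcription factor related to ATF6, fell by 2.58 ± 0.15 on the log2 scale with siRNA1 in A549 (adjusted p 2.84e-09). Its levels there were low, at a mean of 0.716 CPM against 4.311 CPM in control. It was not called with siRNA2 (-0.25 ± 0.12, adjusted p 0.0925) or siRNA3 (-0.008 ± 0.12, adjusted p 0.959). In MDA-MB-231 it was lower (-0.28 ± 0.09, adjusted p 0.0296). MBTPS2, a Golgi protease that cleaves ATF6, was lower with siRNA1 (-1.01 ± 0.08), siRNA2 (-0.58 ± 0.08) and siRNA3 (-1.17 ± 0.08) and in MDA-MB-231 (-0.56 ± 0.06). MBTPS1, the protease that acts before it, was higher with siRNA1 (0.46 ± 0.09) and siRNA2 (1.04 ± 0.09) and lower with siRNA3 (-0.32 ± 0.09, adjusted p 0.0079). EIF2AK3, which encodes PERK, was lower in MDA-MB-231 (-0.46 ± 0.07, adjusted p 0.000255). In A549 it was lower with siRNA1 (-0.37 ± 0.08) and siRNA3 (-0.20 ± 0.08, adjusted p 0.0417) and higher with siRNA2 (0.21 ± 0.08, adjusted p 0.0288).

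ER-associated degradation and transport genes were called in both directions with each siRNA. Of 15 tested in A549, 5 were higher and 7 lower with siRNA1 (median -0.20), 6 higher and 1 lower with siRNA2 (0.08, from -0.01 to 0.18 over the alternatives, with 1 to 4 lower) and 2 higher and 5 lower with siRNA3 (-0.20, and 8 lower without replicate 3). Of 16 in MDA-MB-231, 2 were higher and 6 lower (-0.17, and 4 higher on TPM). Over all genes, 39% were higher and 32.8% lower with siRNA1, and 32.5% and 28.4% with siRNA2. The shares were 30.9% and 30.4% with siRNA3, and 27.5% and 27.8% in MDA-MB-231. On all libraries, the count of lower genes with siRNA2 lay below its share. So did the counts of higher genes with siRNA3 and in MDA-MB-231. The other counts lay near or above theirs. The siRNA2 count of lower genes was 2 without siRNA2 replicate 1, without siRNA2 replicate 3 or without siRNA3 replicate 2. On TPM the siRNA1 median changed sign to 0.06, with 5 higher and 5 lower. SEC61A1, the channel of the ER translocon, was higher in A549 with siRNA1 (1.00 ± 0.07), siRNA2 (0.46 ± 0.07) and siRNA3 (0.45 ± 0.07). In MDA-MB-231 it was not called (-0.16 ± 0.07, adjusted p 0.0642). EDEM1, a lectin that sends misfolded glycoproteins to degradation, was lower with siRNA1 (-0.58 ± 0.07), with siRNA3 (-0.42 ± 0.07) and in MDA-MB-231 (-0.38 ± 0.05), with adjusted p of at most 0.000134, and higher with siRNA2 (0.26 ± 0.07, adjusted p 0.00366).

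The ATF4 and CHOP branch was higher almost throughout in MDA-MB-231. There 11 of 12 genes were higher with siRNA1 and 0 lower, counts that held under every alternative run, with 27.5% of all genes higher and 27.8% lower. The median log2 fold change was 1.53, and 1.43 to 1.62 over the alternatives. In A549, 6 were higher and 4 lower with siRNA1 (median 0.29), against 39% and 32.8% of all genes, and 5 were higher and 4 lower with siRNA2 (0.24), against 32.5% and 28.4%. With siRNA3, 3 were higher and 6 lower (-0.30, and 7 lower without replicate 3), against 30.9% and 30.4%. The siRNA1 effect was lower in A549 than in MDA-MB-231 for 10 of the 12 and higher for 2 in the interaction test. Over all genes, 27% were lower and 30.8% higher there. The median difference of the 12 was -1.28. DDIT3, which encodes the transcription factor CHOP, had 55.7, 61.1 and 57.6 CPM with siRNA1 against 16.5, 15.9 and 13.1 CPM in control MDA-MB-231 (1.94 ± 0.09, adjusted p 1.44e-07). In A549, DDIT3 also lay above control with siRNA1, at 16.82, 14.48 and 17.08 CPM against 9.34, 9.303 and 8.097 CPM. Its A549 mean was 10.16 CPM with siRNA2 and 11.02 CPM with siRNA3, where the libraries overlapped with control. ATF4, the transcription factor of the branch, had 98.3, 94.0 and 102 CPM with siRNA1 against 270.4, 288 and 263 CPM in control A549 (-1.48 ± 0.09, adjusted p 5.38e-09). It also lay below every A549 control library with siRNA2 (176.5, 169.1 and 169.4 CPM) and siRNA3 (181.2, 193 and 230.9 CPM). In MDA-MB-231 ATF4 had 395, 408 and 414 CPM with siRNA1 against 228, 242 and 224 CPM in control, and its siRNA1 effect differed between the lines by -2.25 ± 0.08 (adjusted p 4.35e-12). ASNS, an amino acid synthesis target of ATF4, differed likewise (-3.16 ± 0.12, adjusted p 7.57e-12). In A549 ASNS averaged 26.65, 48.82 and 20.08 CPM with siRNA1, siRNA2 and siRNA3, against 114.2 CPM in control, with no overlap with control. SESN2, a stress-induced regulator of growth signalling, was higher with siRNA1 in both A549 (2.84 ± 0.12) and MDA-MB-231 (2.51 ± 0.10), with adjusted p of at most 7.87e-08. In A549 it averaged 65.39, 28.25 and 17.23 CPM with siRNA1, siRNA2 and siRNA3, against 9.143 CPM in control, again without overlap.

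**Figure D5:**
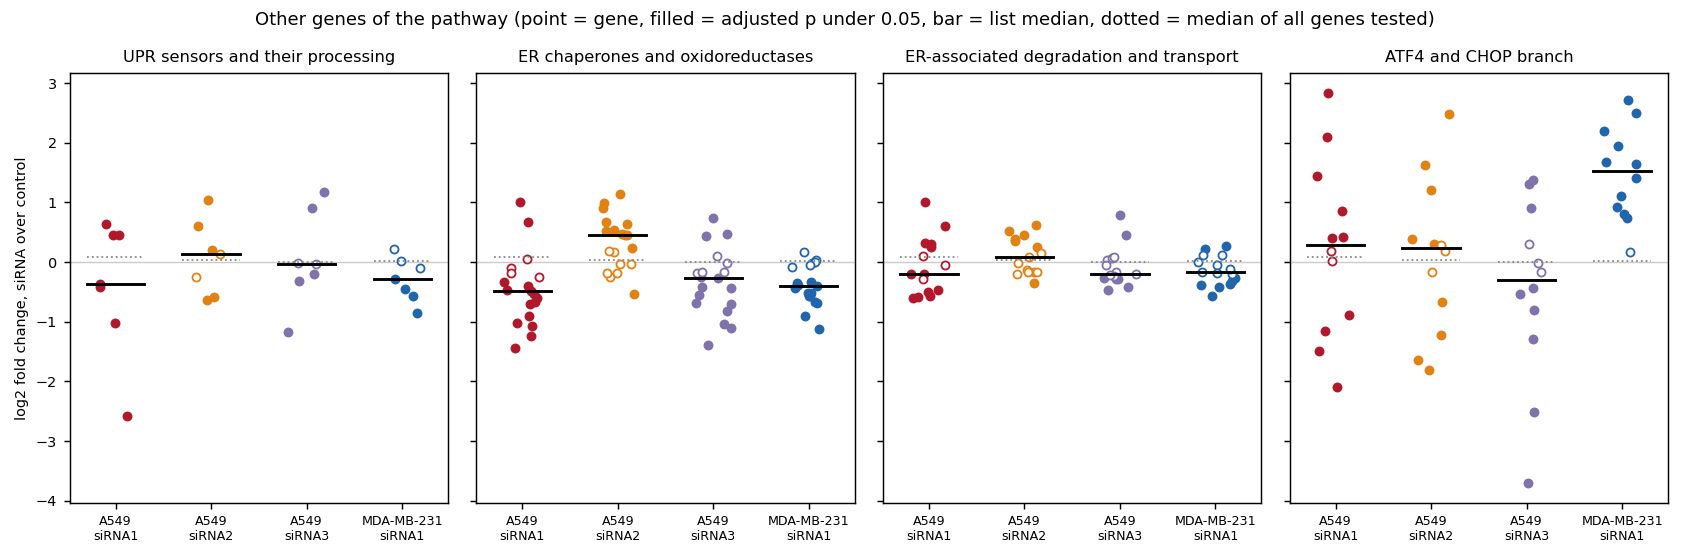
Log2 fold change (vertical axis, siRNA over control) of the genes of the 4 further lists in the 4 comparisons, with filled points for an adjusted p under 0.05, a bar at the median of the list and a dotted line at the median of all genes tested. ER chaperones lie mostly below 0 with siRNA1 and siRNA3 and mostly above 0 with siRNA2, and the ATF4 and CHOP branch lies above 0 in MDA-MB-231. On TPM the siRNA1 median of the degradation list in A549 changes sign to 0.06.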

How the data were processed

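Per the submitters' processing notes, the authors used RSEM and the genome build hg19, and the deposited files give an expected count and a TPM for each gene. For the aligner and the annotation, the sources used here give no name. Libraries were made with a stranded total RNA kit after ribosomal RNA depletion, per the labels' protocols. Expected counts were rounded to whole numbers and tested with the quasi-likelihood F test of edgeR 4.0.16 (R 4.3.3) with TMM scaling, after filterByExpr with a minimum count of 10 and a minimum total of 15, at a Benjamini-Hochberg adjusted p of 0.05. The A549 fit used all 12 libraries, the MDA-MB-231 fit 6, and the interaction fit 12. Standard errors were derived from the F statistic. Deposited TPM were used for levels between genes. Alternatives were DESeq2 1.42.0 (size factors, Wald test), no filter, limma 3.58.1 on log2(TPM + 1) and log2(TPM + 0.1), a replicate block, fits of 2 groups and each library left out. The leave-out of siRNA3 replicate 3 for levels and correlations, and the list counts under alternatives, were added after the data were seen. The members and lists were chosen with earlier results of these data known. Named genes were the members, BLM, up to 4 genes of each further list with the smallest adjusted p per comparison, and the 5 genes most like HSPA5. Tests of some comparisons were also run on counts simulated from the fitted model with few changed genes. Most genes passed in most comparisons of the data, so that setting does not check the scaling used here.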

Additional observations from a re-analysis of the deposited data

Results flagged for a closer look

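The effect of siRNA1 differed between the lines for 7 members by the interaction test (A549 effect minus MDA-MB-231 effect, log2 scale). The effects given beside each difference come from the separate fits of the lines, each with its own TMM scaling. They therefore do not subtract exactly to the difference from the interaction fit. For HSPA5 the difference was -0.57, with effects of -0.83 in A549 and -0.21 in MDA-MB-231. For PDIA4 it was -0.38, with effects of -1.22 in A549 and -0.79 in MDA-MB-231. For ERN1 it was -0.49 (0.90 in A549 and 1.43 in MDA-MB-231), and for HERPUD1 -0.31 (0.31 in A549 and 0.66 in MDA-MB-231). DNAJB9 gave -0.64 (-0.11 in A549, not called, and 0.57 in MDA-MB-231). ATF6 gave 0.34 (0.11 in A549, not called, and -0.19 in MDA-MB-231), and CRELD2 gave 0.68 (0.18 in A549, not called, and -0.45 in MDA-MB-231).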

How the results depend on the processing

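With each library left out, 844 of the member fold changes kept direction and call, 34 lost the call, 10 gained it and 12 changed sign; under the other alternatives the counts were 484, 25, 17 and 14. On log2(TPM + 1) and log2(TPM + 0.1), siRNA1 against control gave 4 members higher and 2 lower (2 and 4 on counts), and the interaction gave 3 and 2 lower (5 on counts). For siRNA1 against siRNA3, 1 member was lower with the replicate block, on both TPM scales and with 2 groups only (2 on counts). Leaving out libraries gave 2 to 6 higher and 1 to 2 lower there, and 1 to 3 higher for the interaction. Signs changed as follows, TPM values being for pseudocounts 1 and 0.1. With siRNA1 against control, XBP1 was 0.058 and 0.059 on TPM and DNAJB9 0.117 and 0.122, and from -0.327 to 0.027 without single libraries. With siRNA3 against control, ATF6 was -0.015 with DESeq2 size factors and with its Wald test, -0.001 and -0.002 on TPM, and from -0.014 to 0.042 without single libraries. For siRNA1 against siRNA3, TPM gave HERPUD1 0.044 and 0.045 and PDIA4 0.157 and 0.158. For the interaction, SDF2L1 was 0.104 and 0.109 on TPM and from -0.234 to 0.098 without single libraries, where XBP1 was from -0.085 to 0.098. The cause was not tested. The interaction's calls over all genes were 6475 higher and 3680 lower on log2(TPM + 0.1). Whether replicate numbers pair the libraries was not settled. In deviations from the group mean, same-numbered A549 libraries of siRNA1 and control correlated at -0.113, 0.108 and 0.342. Those of siRNA1 and siRNA2 ran from -0.607 to 0.374, while siRNA1 replicate 2 and siRNA2 replicate 3 reached 0.699. The replicate block gave 9 members lower for siRNA1 against siRNA2 (10 without it) and 5 higher and 1 lower for siRNA1 against siRNA3, and left the members' counts in the other comparisons as they were. With 3 libraries a group, precision was lowest for DNAJB9 in A549, with a standard error of 0.17 on the log2 scale for each siRNA against control.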
